A study of Homo sapiens with 4 samples.

Results

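The genes described here are the ZNF genes, human genes named for zinc finger proteins, that reached a mean of at least 5 TPM (a level corrected for transcript length and library depth) over 4 libraries of breast cancer cells. They were chosen by the symbol, ZNF followed by a number, and by that mean level. The rule kept 346 of the 508 ZNF genes in a table of 17215 genes. RNA sequencing compared Cal51R, a doxorubicin-resistant form of Cal51 cells, with Cal51, a triple-negative breast cancer line, with 2 libraries of each. Doxorubicin is an anthracycline that traps topoisomerase II on DNA. The study asked which deubiquitinases, enzymes that take ubiquitin off proteins, go with resistance. How Cal51R was selected, whether it is 1 clone and whether drug was present at harvest is not stated in the labels. Nor do they say whether both libraries of a line are separate cultures, so p-values reflect a spread between libraries that may be technical only.

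Most ZNF proteins bind DNA through arrays of C2H2 zinc fingers, in which a zinc ion held by 2 cysteines and 2 histidines folds a short loop that contacts a few bases. The largest group also carries a KRAB box, which recruits the corepressor TRIM28 and through it the histone methyltransferase SETDB1 and HP1 proteins. KRAB zinc finger proteins are known above all for silencing retroelements, and their genes lie in tandem clusters, most of them on chromosome 19. ZNF proteins without a KRAB box have mixed roles, among them promoter-binding activators, subunits of chromatin complexes and proteins of RNA processing.

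Most of the 346 genes were higher in Cal51R. With TMM scaling, which sets the libraries on a common scale from the bulk of genes, 226 of the 346 rose (65.3%), 33 fell (9.54%) and 87 were not called. A call is an adjusted p under 0.05 in edgeR's quasi-likelihood test with Benjamini-Hochberg adjustment over all 13674 genes tested. All 346 ZNF genes passed the filter on low counts. Of all genes tested, 35.3% rose and 35.5% fell. Among the 10827 genes that met the same minimum of 5 TPM, 33% rose and 39.2% fell. The median log2 fold change of the 346 genes was 0.40, a 1.32-fold higher level in Cal51R, against 0.02 over all genes tested and -0.06 over the other 10481 genes of at least 5 TPM. Single genes spread widely, with quartiles of 0.14 and 0.76 and a range of -1.30 to 2.42, and the standard errors ran from 0.07 to 0.20.

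The scaling changed the number of calls and not their main direction. With library totals in place of TMM, 279 rose (80.6%) and 17 fell (4.91%), against 46.8% and 25.5% of all genes tested, and the median of the 346 genes was 0.60. That scaling moved the median of all genes by 0.20 on the log2 scale, so that the ZNF median stood 0.39 above the median of all genes under either. Rises made up 87.3% of the ZNF calls with TMM and 94.3% with totals, against 49.9% and 64.7% of the calls over all genes. All 226 genes that rose with TMM also rose with totals, 53 more rose with totals alone, and 16 of the 33 falls were called with TMM alone. Changes of at least 2-fold were called higher for 50 of the 346 genes. That share is close to the 13.7% of all genes tested, but those include genes under 5 TPM. They were called lower for 2, against 9.87% of all genes tested. Among the 10827 genes of at least 5 TPM, the numbers were 926 higher and 847 lower. Of the 50 genes, 31 reached 5 TPM in Cal51R only. Of the 278 genes with at least 5 TPM in both lines, 19 were 2-fold higher and 2 lower.

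**Figure D1:**
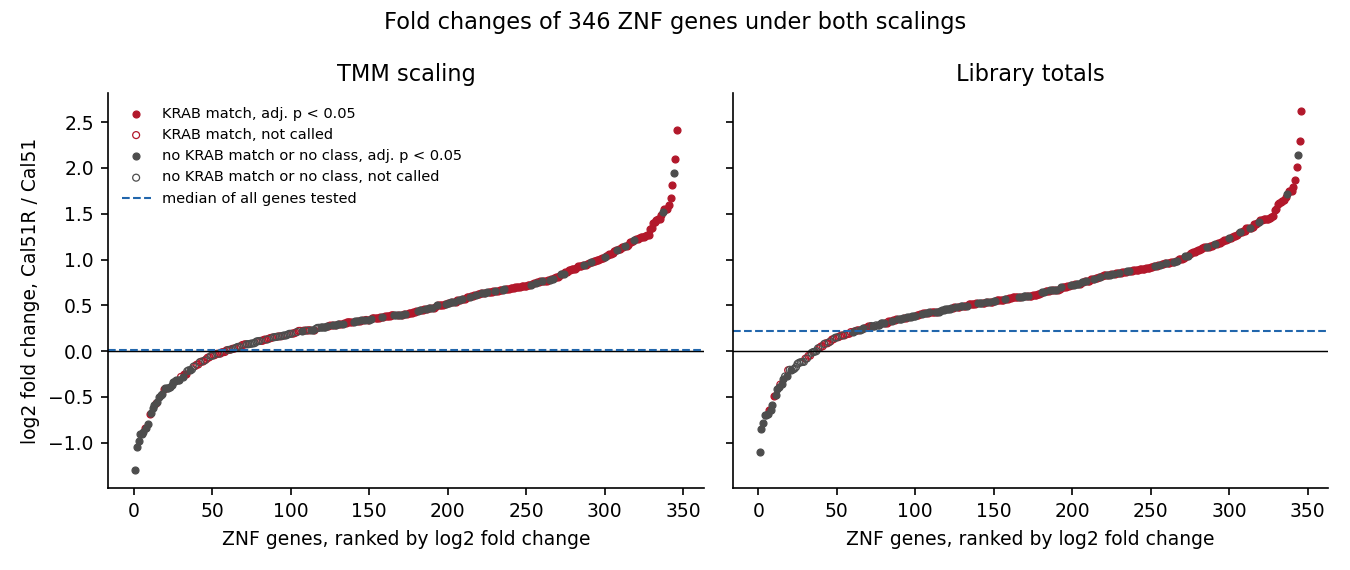
Log2 fold change of each of the 346 ZNF genes, Cal51R over Cal51, ranked from lowest to highest, with TMM scaling on the left and library totals on the right. Red points are genes whose protein matched a KRAB profile, grey points the others, filled points are called, and the dashed line is the median of all genes tested. The curve crosses 0 far to the left of its middle under both scalings, and the lowest points are mostly grey.

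A gene that is high in 1 line only can pass the minimum, which is set on the mean of all libraries. Of the 346 genes, 278 had at least 5 TPM in both lines, and of these 167 rose, 30 fell and the median was 0.34. Another 65 passed through Cal51R alone, of which 59 rose, and 3 passed through Cal51 alone, all of which fell. The 3 genes just inside the minimum were ZNF784 at a mean of 5.03 TPM, ZNF441 at 5.07 and ZNF611 at 5.08, and the 3 just outside were ZNF225 at 4.95, ZNF846 at 4.93 and ZNF792 at 4.87. Of the 162 ZNF genes under the minimum, 121 could be tested, 79 rose and 8 fell. By mean level, on which the genes were chosen, the 148 genes of 5 to 10 TPM had a median of 0.55 with 103 higher and 11 lower, the 116 of 10 to 20 TPM a median of 0.48 with 84 and 8, the 61 of 20 to 40 TPM a median of 0.23 with 31 and 8, and the 21 of at least 40 TPM a median of 0.09 with 8 and 6. Genes that passed through 1 line only lie near the minimum. With the 278 genes over it in both lines alone, the medians were 0.36 for 81 genes of 5 to 10 TPM, 0.47 for 115 of 10 to 20 TPM, and again 0.23 and 0.09, so that the lowest level no longer had the highest median.

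Summed over the genes, both Cal51R libraries stood above both Cal51 libraries. The sums rest on the TPM values that chose the genes. They include 65 genes that passed the minimum through Cal51R alone and 3 that passed through Cal51 alone. A sum without these genes is not given here. The 346 genes together held 6410 and 7049 TPM in Cal51R and 4691 and 4453 TPM in Cal51, or 1.05% and 1.14% of all reads in Cal51R and 0.785% and 0.757% in Cal51. The CPM values (counts scaled to the TMM-adjusted library size) of the 2 lines did not overlap for 307 genes. Cal51R was above Cal51 in 265 of them and below it in 42. The share without overlap over all genes is not given here, so these counts do not set the ZNF genes apart. They also include genes that passed the minimum through 1 line only. Across the 4 pairs of a Cal51R and a Cal51 library the median difference ran from 0.36 to 0.48 on the log2 scale. The Cal51R libraries also differed from each other, replicate 2 exceeding replicate 1 by a median of 0.10 over the ZNF genes and by 0.12 over those with a KRAB match, with a median of -0.01 over all genes of at least 5 TPM. The 2 Cal51 libraries differed by -0.03. Without Cal51R replicate 2 the test called 212 genes higher and 30 lower, with a median of 0.39.

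**Figure D2:**
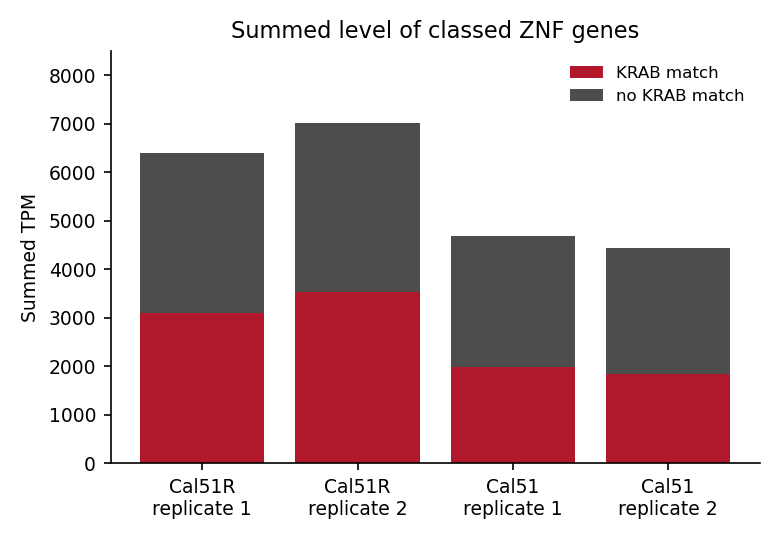
Summed TPM of the 345 ZNF genes that could be classed by protein, for each library, with genes that matched a KRAB profile in red and those that did not in grey. Both Cal51R libraries stand above both Cal51 libraries, and the KRAB portion is 3089 and 3530 TPM in Cal51R and 1977 and 1847 TPM in Cal51. The sums include genes that passed the minimum through a single line only, most of them through Cal51R.

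The libraries held 17852379 and 19854849 estimated counts for Cal51R and 21636996 and 18537714 for Cal51, so that 3 counts, taken as the limit of detection, were worth 0.139 to 0.175 CPM. The lowest count of any of the 346 genes in any library was 47. The 5 epithelial markers summed to 10662 and 9548 TPM in Cal51R and to 17248 and 18577 TPM in Cal51, nearly all of it keratins KRT8 and KRT18. EPCAM was also lower in Cal51R, at 122 and 130 TPM, against 260 and 245 TPM in Cal51, while KRT19 was higher, at 148 and 149 TPM in Cal51R and 5.55 and 5.10 TPM in Cal51. The epithelial cadherin CDH1 was at 0.42 to 1.62 TPM in all libraries. Of the 3 receptors that triple-negative tumours lack, ESR1 was at 0.76 to 2.09 TPM, ERBB2 at 79.4 to 90.9 TPM, and PGR is not analysed here. The 4 leukocyte markers summed to 1.36 and 1.38 TPM in Cal51R and to 3.97 and 5.41 TPM in Cal51. The 3 endothelial markers summed to 93.1 and 104 TPM in Cal51R and to 33.1 and 29.3 TPM in Cal51, nearly all of it PECAM1. The 5 mesenchymal markers, led by VIM and COL1A2, summed to 630 and 669 TPM in Cal51R and to 1305 and 1228 TPM in Cal51. The part of these differences in the ZNF results was not tested. In bulk libraries, fewer cells of a kind and less RNA per cell cannot be told apart.

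Of the 226 genes that rose, 166 encode KRAB proteins. A profile of the KRAB box matched the proteins of 220 of the 346 genes and did not match 125, and 1 gene, ZNF875, had no protein to search. Of the 220 KRAB genes, 166 rose (75.5%), 6 fell (2.73%) and the median log2 fold change was 0.60. Of the 125 genes without a match, 59 rose (47.2%), 27 fell (21.6%) and the median was 0.22. With library totals the KRAB genes gave 192 higher and 2 lower with a median of 0.80, and the others gave 86 higher and 15 lower with a median of 0.42. DESeq2 called 3 of the KRAB genes lower. Among genes over the minimum in both lines, 112 of 160 KRAB genes rose and 5 fell with a median of 0.45, and 54 of 117 without a match rose and 25 fell with a median of 0.21. The 6 KRAB genes that fell with TMM were ZNF641, ZNF517, ZNF57, ZNF738, ZNF473 and ZNF354A, of which ZNF641 and ZNF517 also fell with totals. No test of the difference between the classes was made, and the values stand side by side as a description.

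The counts were also taken by the length of the finger array. They include the genes that passed the minimum through Cal51R alone, of which 59 of 65 rose, and are not given without these. The median level was 9.34 TPM with 15 or more fingers and 22.9 TPM with 1 to 4. The part of this choice in the values below was not tested. The 70 genes with 15 or more C2H2 fingers had 57 higher and 4 lower with a median of 0.62, and the 116 with 10 to 14 had 81 higher and 6 lower with a median of 0.52. The 105 with 5 to 9 fingers had 66 higher and 8 lower with a median of 0.35, and the 47 with 1 to 4 had 19 higher and 11 lower with a median of 0.17. Among the 7 genes whose protein held no match to the finger pattern, 2 rose and 4 fell. The finger number goes with the class, with a median of 12 fingers in KRAB genes and 7 in the others. Within the KRAB class the medians were 0.69 with 15 or more fingers, 0.62 with 10 to 14 and 0.40 with fewer. The gene with the most fingers, 31, was ZNF91, a KRAB protein known to repress SVA retroelements. It had 16.5 and 21.2 CPM in Cal51R, against 10.1 and 10.6 CPM in Cal51, a rise of 0.87 on the log2 scale (edgeR adjusted p = 2.53e-05). ZNF91 averaged 4.825 TPM in Cal51 and was chosen only through Cal51R, which fixes its direction.

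**Figure D3:**
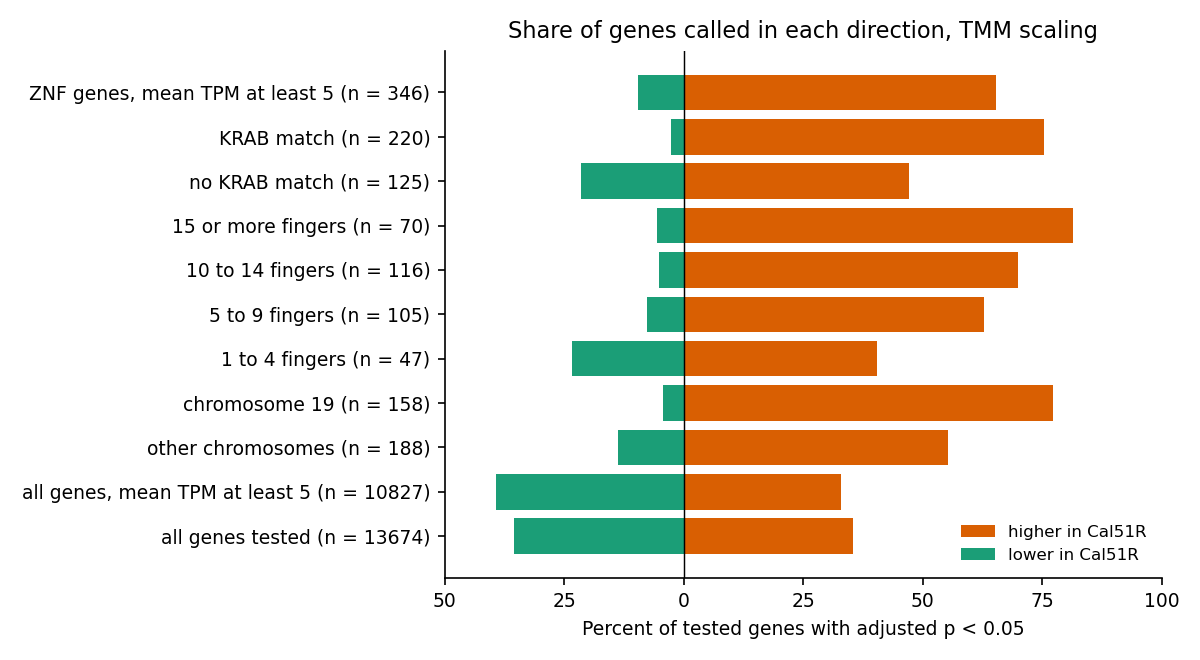
Percent of tested genes that were called higher in Cal51R, to the right of 0, and lower, to the left, with TMM scaling, for classes of the 346 ZNF genes and, at the bottom, for all genes. KRAB genes reach 75.5% higher and 2.73% lower, and genes without a KRAB match 47.2% and 21.6%.

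Nearly as many of the genes lie on chromosome 19 as on all others together. Of the 158 ZNF genes there, 122 rose and 7 fell, with a median of 0.66. The 828 tested genes of that chromosome that are not ZNF genes of any level had 258 higher, 304 lower and a median of 0.00. The number that fell was 1 with library totals, 3 with DESeq2 or with FPKM values and 3 without Cal51 replicate 2. Of the 115 over the minimum in both lines, 82 rose and 7 fell, with a median of 0.50. The 188 ZNF genes of other chromosomes had 104 higher and 26 lower with a median of 0.31. On chromosome 19 the 133 KRAB genes had a median of 0.70 with 111 higher and 3 lower, and the 24 without a match a median of 0.23 with 10 higher and 4 lower. The 87 KRAB genes elsewhere had a median of 0.39 with 55 higher and 3 lower.

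When neighbours at most 500 kb apart were joined, runs of at least 4 of the ZNF genes formed 10 clusters on chromosome 19 (GRCh38.p14), which held 144 of its 158 genes. In these, 116 rose and 3 fell, and all 10 cluster medians were above 0, from 0.25 to 0.94, under TMM and under totals. The largest cluster, chr19:57191500-58489533, held 32 genes, 27 of them higher and 0 lower, with a median of 0.71. The next, chr19:51571283-53580269, held 28 genes, all with a KRAB match, of which 23 rose and 0 fell, and it held ZNF528, ZNF610 and ZNF888. The highest median, 0.94, was that of chr19:36214723-37719761, where 15 of 16 genes rose, ZNF568 the most, and ZNF146 fell. The lowest, 0.25, was that of chr19:55476617-56624486, where 2 of 11 genes had a KRAB match, 5 rose and 1 fell. Within these clusters, 28 tested genes had symbols that do not begin with ZNF, ZSCAN, ZKSCAN, ZFP, ZIM or ZIK. Of these, 15 were higher and 6 lower, with a median of 0.37. The ZNF counts by cluster, here and below, include genes that passed the minimum through a single line only. Counts without them are not given by cluster.

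**Figure D4:**
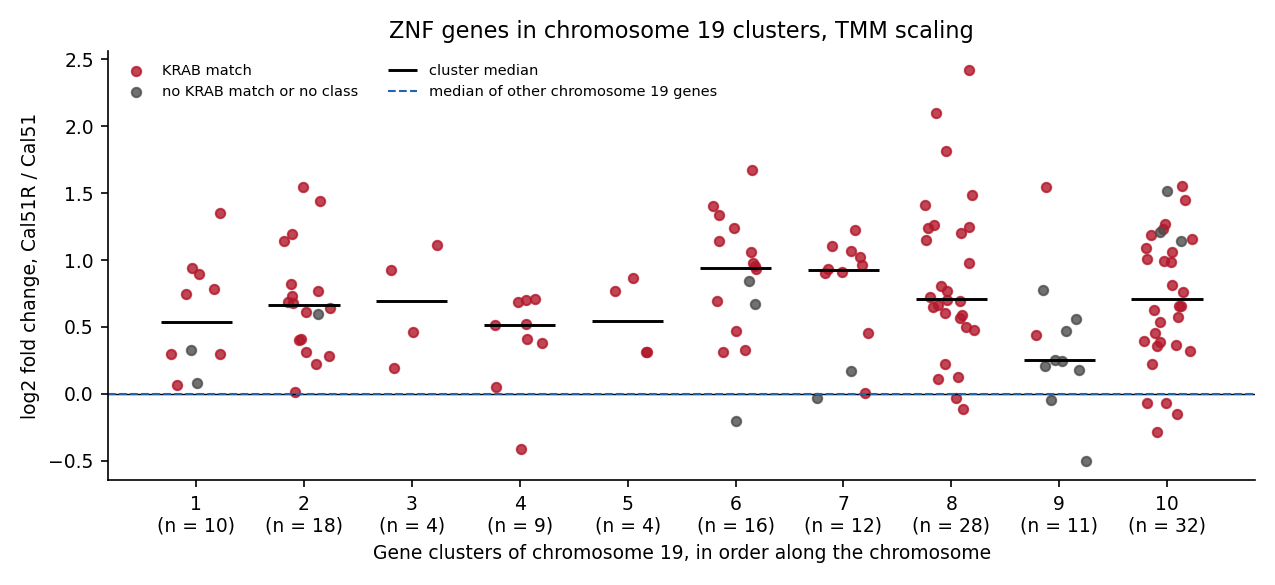
Log2 fold change, Cal51R over Cal51 with TMM scaling, of the 144 ZNF genes in the 10 clusters of chromosome 19, numbered in their order along the chromosome. Red points have a KRAB match, grey points are the others, and the black bars are cluster medians. The dashed line, at 0.00, is the median of the tested genes of the chromosome that are not ZNF genes of any level. The bars lie above that line in all 10 clusters.

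Clusters elsewhere varied more. On chromosome 16, all 7 genes of chr16:3112586-3443504 rose with a median of 0.97, among them ZNF597 and ZNF263. The 4 other tested genes there, outside the same families as above, had 2 higher, 0 lower and a median of 0.93. Whether the stretch shifted as a whole was not tested. On chromosome 12, all 4 genes of chr12:132918306-133107428 rose with a median of 0.85. On chromosome 1, 1 of the 5 genes of chr1:246945546-247331867 rose, all of them KRAB genes, and the median was 0.07. On chromosome 7, 2 of the 6 KRAB genes of chr7:64313961-65401136 rose, and the median of the 6 was 0.18. The 2 other tested genes there were not called and had a median of 0.32.

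Named genes follow, first those with the largest rises. ZNF528 (gene ID 84436, chr19:52397849-52418401) encodes a KRAB protein of 15 fingers. It had 15.1 and 16.8 CPM in Cal51R and 3.10 and 2.85 CPM in Cal51, a 5.34-fold rise (log2 fold change 2.42, SE 0.15, edgeR adjusted p = 7.29e-10). Its close neighbour ZNF610 (gene ID 162963, chr19:52330221-52367778), also a KRAB gene, had 11.2 and 11.9 CPM in Cal51R and 2.66 and 2.73 CPM in Cal51, a 4.28-fold rise. ZNF888 (gene ID 388559, chr19:52904415-52923428), of the same cluster, was more abundant, with 54.6 and 58.6 CPM in Cal51R and 15.1 and 17.2 CPM in Cal51, a 3.52-fold rise. In all 3 genes each Cal51R library exceeded both Cal51 libraries, which was a condition for choosing the largest rises.

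ZNF516 (gene ID 9658, chr18:76357682-76496419) has 10 fingers and, like ZNF497 below, no KRAB match. Its protein is known as a partner of the CtBP and LSD1 corepressors and as an activator of brown fat genes. It had 44.0 and 47.0 CPM in Cal51R and 11.8 and 11.9 CPM in Cal51, a 3.84-fold rise (log2 1.94, SE 0.10, edgeR adjusted p = 5.02e-11). Then came ZNF568 (3.18-fold), whose mouse counterpart silences a placental promoter of Igf2, and ZNF597 (3.02-fold), an imprinted gene of chromosome 16. ZNF256, ZNF136, ZNF583 and ZNF497 rose 2.93-fold, 2.92-fold, 2.92-fold and 2.86-fold. Of these 10 genes, 9 averaged under 5 TPM in Cal51 and so were chosen only through their level in Cal51R, which fixes their direction. The other one, ZNF888, averaged 34.5 TPM in Cal51R and 8.25 TPM in Cal51.

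The falls were led by genes without a KRAB box. ZNF281 (gene ID 23528, chr1:200404951-200410036), which binds GC-rich promoters and has been studied in epithelial-mesenchymal transition and in the DNA damage response, had 36.2 and 39.8 CPM in Cal51R and 92.9 and 93.9 CPM in Cal51. That is a 2.46-fold lower level in Cal51R (log2 fold change -1.30, SE 0.08, edgeR adjusted p = 7.96e-10). ZNF385A (gene ID 25946, chr12:54369136-54391298), a partner of p53, had 21.9 and 22.2 CPM in Cal51R and 46.4 and 44.7 CPM in Cal51, a 2.07-fold lower level. ZNF703, a corepressor and luminal breast cancer oncogene, had 8.22 and 7.47 CPM in Cal51R and 14.8 and 16.2 CPM in Cal51. The 2 lines did not overlap in any of these genes, which was a condition of their choice.

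ZNF326, a subunit of a complex that couples transcript elongation to splicing, was at 50.1 and 59.4 CPM in Cal51R and 104 and 101 CPM in Cal51. ZNF341, which drives STAT3 expression, was at 6.84 and 6.59 CPM in Cal51R and 13.5 and 11.2 CPM in Cal51. ZNF423, a cofactor of SMAD proteins with 27 fingers, was at 9.33 and 9.84 CPM in Cal51R and 17.7 and 16.6 CPM in Cal51. All 3 fell, as did ZNF513, ZNF641, ZNF706 and ZNF517, with log2 fold changes of -0.90, -0.84, -0.79 and -0.69 in that order. These falls were called with TMM and with library totals alike. ZNF513, ZNF423 and ZNF517 averaged under 5 TPM in Cal51R and were chosen only through Cal51.

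**Figure D5:**
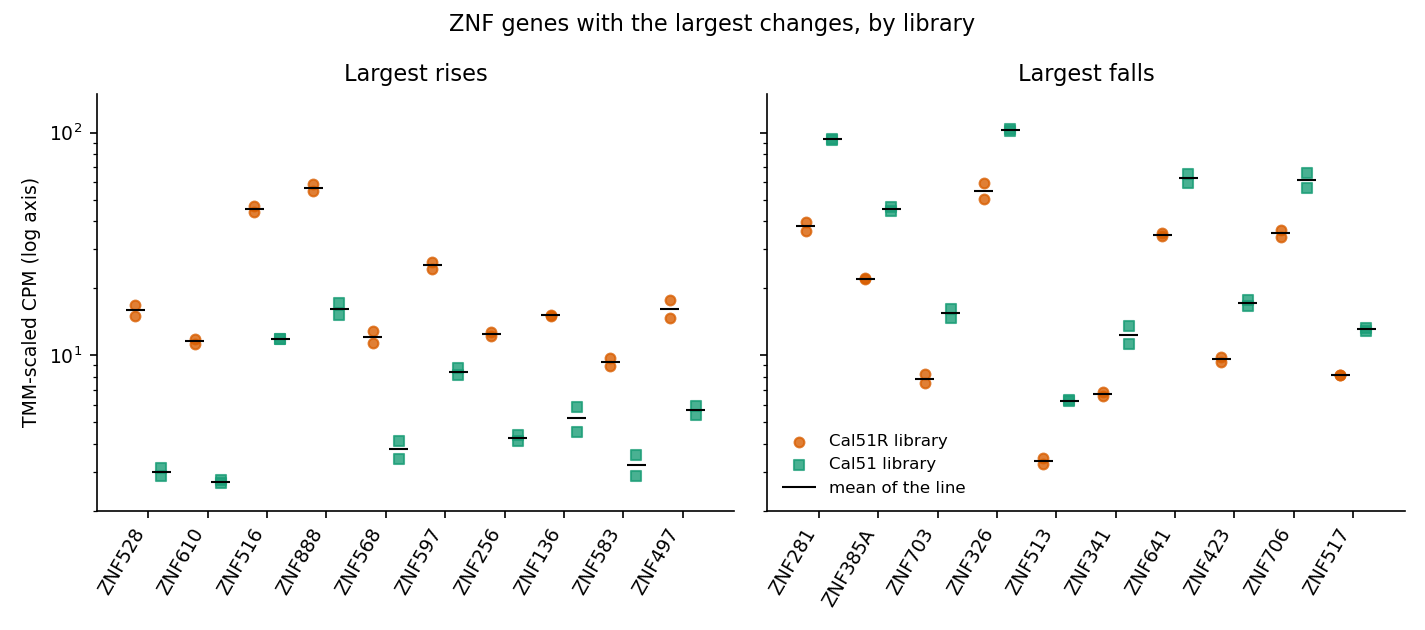
TMM-scaled CPM on a log axis for the 10 ZNF genes with the largest rises, left, and the 10 with the largest falls, right, among called genes whose lines did not overlap. Orange circles are the Cal51R libraries, green squares the Cal51 libraries, and bars the mean of each line. ZNF528 shows the widest gap among the rises, and ZNF281 among the falls.

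The promoters of 5 of these genes are shown. ZNF528, ZNF568 and ZNF597 are the KRAB genes of different clusters with the largest rises among those with a RefSeq promoter here, ZNF281 is the gene that fell most, and ZNF641 is the KRAB gene that fell most. Each is the 250 bases before the first listed RefSeq start (GRCh38.p14), 5′ to 3′ on the strand of the gene. Capitals mark CCGGAA, the core that ETS factors such as GABP bind, and CCAAT, the box that NF-Y binds, or their reverse complements TTCCGG and ATTGG.
ZNF528 (chr19:52397599-52397848, plus strand): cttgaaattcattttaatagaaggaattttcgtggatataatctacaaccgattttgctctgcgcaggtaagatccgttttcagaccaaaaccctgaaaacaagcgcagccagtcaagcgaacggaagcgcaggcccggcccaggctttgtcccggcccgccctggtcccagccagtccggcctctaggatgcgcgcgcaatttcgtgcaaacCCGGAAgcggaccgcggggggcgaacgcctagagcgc
ZNF568 (chr19:36916082-36916331, plus strand): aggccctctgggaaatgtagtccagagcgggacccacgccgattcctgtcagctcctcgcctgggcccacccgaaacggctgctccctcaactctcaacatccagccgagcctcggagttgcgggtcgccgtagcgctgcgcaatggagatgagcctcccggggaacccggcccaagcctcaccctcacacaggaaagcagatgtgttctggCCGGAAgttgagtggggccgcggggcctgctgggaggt
ZNF597 (chr16:3443505-3443754, minus strand): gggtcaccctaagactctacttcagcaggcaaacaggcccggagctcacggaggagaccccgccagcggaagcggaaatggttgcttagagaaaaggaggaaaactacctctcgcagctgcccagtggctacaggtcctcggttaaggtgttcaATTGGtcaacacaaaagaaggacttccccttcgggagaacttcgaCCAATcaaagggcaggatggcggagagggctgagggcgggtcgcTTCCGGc
ZNF281 (chr1:200410037-200410286, minus strand): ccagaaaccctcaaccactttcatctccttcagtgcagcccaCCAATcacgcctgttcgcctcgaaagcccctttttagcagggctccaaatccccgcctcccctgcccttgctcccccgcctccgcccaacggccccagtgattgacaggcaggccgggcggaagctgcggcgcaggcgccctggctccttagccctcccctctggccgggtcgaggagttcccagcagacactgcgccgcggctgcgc
ZNF641 (chr12:48350920-48351169, minus strand): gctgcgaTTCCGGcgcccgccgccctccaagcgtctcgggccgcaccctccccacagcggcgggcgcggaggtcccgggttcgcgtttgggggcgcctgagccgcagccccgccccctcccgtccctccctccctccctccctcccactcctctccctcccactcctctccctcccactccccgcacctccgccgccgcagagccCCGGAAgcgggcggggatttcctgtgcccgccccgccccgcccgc
On either strand, ZNF528 and ZNF568 each hold 1 CCGGAA, ZNF597 holds 1 CCGGAA and 2 CCAAT boxes, and ZNF281 holds 1 CCAAT box and no CCGGAA. ZNF641, which fell, holds 2 CCGGAA. The same stretch of ZNF516, ZNF136, ZNF583 and ZNF497, which all rose, holds no CCGGAA, so named genes of both directions hold it and lack it. A match describes these letters and is not shown to be a bound site.

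Over windows of 300 bases, from 250 before to 50 after the start, RefSeq promoters were found for 300 of the 346 genes and for 11113 of the genes tested. CCGGAA on either strand was in 53% of the ZNF promoters, in 61.1% of those of KRAB genes, in 39.4% of those without a KRAB match and in 29.0% of all. CCAAT on either strand was in 46% of the ZNF promoters, in 54.2% of the KRAB promoters, in 31.2% of the others and in 36.3% of all. TATAAA on either strand was in 3% of the ZNF promoters and in 5.73% of all. Within the KRAB class the share with CCGGAA was 61.4% of the genes that rose and 59.5% of those not called.

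Of the 6 most abundant genes, 2 rose under both scalings. ZNF664, at a mean of 135 TPM the highest of the 346, had 242 and 275 CPM in Cal51R and 248 and 238 CPM in Cal51, overlapping values that were not called with TMM (log2 fold change 0.09, edgeR adjusted p = 0.328). With library totals it was called higher (0.29, adjusted p = 0.00357), and ZNF428 and ZNF598 changed their call in the same way, ZNF428 also without Cal51R replicate 2 (adjusted p = 0.00944). ZNF146, a protein made almost wholly of zinc fingers, had 131 and 136 CPM in Cal51R and 155 and 153 CPM in Cal51, and fell with TMM (-0.20, edgeR adjusted p = 0.0179), but not with totals (-0.01, adjusted p = 0.951). It was also not called with the replicate block (adjusted p = 0.0912) or without either Cal51 library (0.143 and 0.110). ZNF593 and ZNF330, at 62.7 and 51.5 TPM, fell with TMM by 0.39 and 0.34 on the log2 scale and were not called with totals or on the FPKM scales. ZNF593 was also not called with DESeq2 (adjusted p = 0.0600), without Cal51R replicate 2 (0.106) or without Cal51 replicate 2 (0.123). ZNF511, at 67.7 TPM, had 29.7 and 28.0 CPM in Cal51R and 29.8 and 36.5 CPM in Cal51. These values barely missed overlapping, and ZNF511 was not called under either scaling (-0.20 with TMM, edgeR adjusted p = 0.102). Without Cal51R replicate 1 or Cal51 replicate 1 its fall was called (adjusted p = 0.0288 and 0.0269).

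ZNF217 and ZNF22 were the pair that rose under both scalings. ZNF217, amplified in many breast cancers and a partner of the LSD1 and CtBP corepressors, had 245 and 272 CPM in Cal51R and 212 and 201 CPM in Cal51, a rise of 0.32 on the log2 scale (edgeR adjusted p = 0.00129). ZNF22 had 80.6 and 81.0 CPM in Cal51R and 43.1 and 47.5 CPM in Cal51, a 1.79-fold rise (adjusted p = 1.78e-07).

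Lists of ZNF genes by role are read against the 346 genes, of which 65.3% rose with a median of 0.40. They are also read against the KRAB genes, of which 75.5% rose with a median of 0.60. Repressors of retroelements and guards of imprints, a list of 11 of the 346 genes, had 8 higher (72.7%) and 0 lower, with a median of 0.68, which is close to the KRAB genes, the class of all those named here. ZNF274, which brings SETDB1 to the 3′ ends of other zinc finger genes, had 42.5 and 46.4 CPM in Cal51R and 21.0 and 21.6 CPM in Cal51, a 2.09-fold rise (edgeR adjusted p = 4.79e-08). ZNF417 and ZNF587, closely similar repressors of HERV-K elements, rose 2.23-fold and 1.98-fold, and since reads can be split between such genes their separate values are uncertain. ZNF93, a repressor of LINE-1 elements, had 12.6 and 13.3 CPM in Cal51R and 7.04 and 6.58 CPM in Cal51. ZNF445, which guards imprinted loci, rose 1.60-fold. ZNF417 and ZNF445 averaged 3.845 and 3.73 TPM in Cal51 and were chosen only through Cal51R, which fixes their direction. The share and median of the list include such genes. ZNF649, ZNF765 and ZNF141 were not called, with log2 fold changes of -0.03, 0.13 and 0.16.

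Genes for the proteins that KRAB factors recruit moved in both directions. Of 19 genes of the TRIM28, SETDB1, HUSH, HP1 and deacetylase machinery, 5 rose (26.3%), 11 fell and 3 were not called, with a median of -0.20. None of them is a ZNF gene, so they are read against all genes tested. Of those, 35.3% rose and 35.5% fell, with a median of 0.02. With library totals 6 rose and 5 fell, with a median of -0.00, while 46.8% of all genes tested rose and 25.5% fell. TRIM28 itself had 434 and 387 CPM in Cal51R and 461 and 483 CPM in Cal51. It was called lower with TMM (-0.20, edgeR adjusted p = 0.0294), not with totals (-0.00, adjusted p = 0.977) and not with the replicate block (adjusted p = 0.110) or a filter of 5 CPM (0.0612). It was also not called without Cal51R replicate 2 (0.214), Cal51 replicate 1 (0.0682) or Cal51 replicate 2 (0.197). SETDB1 had 62.5 and 62.3 CPM in Cal51R and 51.4 and 47.3 CPM in Cal51 and rose by 0.34 on the log2 scale. TASOR of the HUSH complex rose by 0.54, and CHD3, a remodeller that TRIM28 binds, by 1.04. HDAC1 and the HP1 gene CBX3 fell by 0.88 and 0.60.

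The list of DNA damage proteins held 8 of the 346 genes, of which 5 rose (62.5%), 2 fell and 1 was not called, with a median of 0.35, close to the share and median of all 346. ZNF451, a SUMO ligase that helps to resolve topoisomerase II trapped on DNA, had 63.2 and 69.8 CPM in Cal51R and 57.9 and 50.2 CPM in Cal51, a 1.23-fold rise (edgeR adjusted p = 0.00823). ZNF280C, which limits resection at DNA breaks, had 16.1 and 19.1 CPM in Cal51R and 8.91 and 8.32 CPM in Cal51, a 2.04-fold rise. ZNF432, a KRAB protein that binds poly(ADP-ribose) at damage, rose 1.97-fold, and ZNF281, described above, fell. ZNF280C and ZNF432 averaged 4.04 and 3.735 TPM in Cal51 and were chosen only through Cal51R, which fixes their direction. The share and median of the list include them. ZNF668 fell with TMM (-0.40, edgeR adjusted p = 0.0117), but was not called with totals (0.160), with DESeq2 (0.0587) or without Cal51R replicate 2 (0.130). ZNF384, which brings the Ku proteins to breaks, was not called with TMM (0.08) and was called higher with totals (0.27).

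The list of RNA processing and ribosome proteins held 12 of the 346 genes. With TMM 3 rose (25%, against 65.3% of all 346), 6 fell and 3 were not called, with a median of -0.14, and with library totals 6 rose and 4 fell with a median of 0.06. ZNF207, a spindle and splicing protein, had 179 and 189 CPM in Cal51R and 270 and 272 CPM in Cal51, and fell (log2 fold change -0.56, edgeR adjusted p = 3.48e-06). ZNF326, ZNF385A and ZNF706, described above, also fell. ZNF622, a factor of large ribosomal subunit maturation, had 51.5 and 50.2 CPM in Cal51R and 31.9 and 33.7 CPM in Cal51, a 1.55-fold rise. ZNF638, which binds RNA and takes part in silencing of unintegrated retroviral DNA, rose 1.32-fold.

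Promoter-binding activators split. Of 10 genes, 4 rose (40%), 3 fell and 3 were not called, with a median of 0.12. ZNF143, an activator of many housekeeping promoters, had 13.7 and 15.6 CPM in Cal51R and 22.5 and 22.7 CPM in Cal51, and fell (-0.62, edgeR adjusted p = 9.97e-05). Its paralogue ZNF76 fell with TMM (-0.32) and was not called with totals (adjusted p = 0.238). ZNF740 and ZNF263 rose 1.36-fold and 1.32-fold. ZNF263 has a KRAB match, so its place among the activators is uncertain. Chromatin complex proteins had 7 of 13 genes higher (53.8%) and 3 lower, with a median of 0.26. Beside ZNF516 they held ZNF518A, which rose 1.58-fold, and ZNF800, which had 15.4 and 17.9 CPM in Cal51R and 26.3 and 27.0 CPM in Cal51 and fell. ZNF512B fell with TMM and totals (-0.40 and -0.20), but was not called on the FPKM scales (adjusted p = 0.0714 and 0.0700).

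The list of development and breast cancer genes had 4 of 7 higher (57.1%) and 2 lower, with a median of 0.32. The paralogues ZNF503 and ZNF703 moved apart. ZNF503 had 22.1 and 21.6 CPM in Cal51R and 15.3 and 12.7 CPM in Cal51, a 1.56-fold rise (edgeR adjusted p = 0.000126), while ZNF703 fell. ZNF671 had 13.8 and 13.9 CPM in Cal51R and 6.35 and 6.69 CPM in Cal51, a 2.13-fold rise.

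Other zinc finger families of at least 5 TPM differed among themselves. Of 12 ZSCAN genes, whose proteins join a SCAN dimerisation domain to C2H2 fingers, 11 rose and 0 fell, with a median of 0.76. Of 14 ZFP genes 12 rose and 0 fell (median 0.52), and of 5 ZKSCAN genes 4 rose and 0 fell. Of 32 ZBTB genes, whose proteins pair fingers with a BTB domain, 12 rose (37.5%) and 2 fell (6.25%), with a median of 0.11. Among all 10827 genes of at least 5 TPM, 33% rose and 39.2% fell, so the share of ZBTB rises was near that of all genes. How many genes of these families passed the minimum through a single line only is not given here.

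GC content moved with the result. With all genes split evenly by transcript GC, at 45.3% and 55.4%, 168 of the ZNF genes lay in the low range, 103 in the middle and 74 in the high range. Their median log2 fold changes were 0.54, 0.45 and 0.18. Those of tested genes in the same ranges that are not ZNF genes of any level were 0.00, -0.01 and -0.02. For the KRAB genes the medians were 0.65, 0.62 and 0.23. All these ZNF medians include genes that passed the minimum through a single line only. Reads shared between similar genes are a further limit. All counts are estimates, and 3.64% to 5.45% of the KRAB genes had a whole count in a library, against 12.5% to 16.1% of all genes of at least 5 TPM. The part of GC content and of read sharing in the rise was not tested.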

How the data were processed

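Polyadenylated RNA was sequenced from 2 libraries each of Cal51R and Cal51. Per the submitters' processing notes, RSEM 1.2.8, HISAT2 2.1.0, Bowtie2 2.2.5 and DESeq were used with build hg38, in roles they do not give; the sources name no gene annotation. The authors deposited, per the file headers, a read count, an FPKM and a TPM value per gene and library. The deposited read counts are estimated counts that need not be whole, and were rounded. The authors' TPM chose the genes and gave the levels, and the authors' FPKM served in alternatives only. Strand is not given, so reads of antisense neighbours cannot be told apart.

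The test was edgeR 4.0.16's quasi-likelihood test (R 4.3.3) with TMM scaling, filterByExpr (at least 10 counts) and no term but the line. It tested 13674 genes and left out 3541. SE is the log2 fold change over the root of F. Replicates differed by a coefficient of variation of 5.83%, and by a chi-square per gene of 6.60 in Cal51R and 4.32 in Cal51, above counting noise. Limits of detection cover counting error only. Simulated data with 200 changed genes served to test the code.

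KRAB calls came from an HMMER 3.4 profile, built from 228 proteins that matched a KRAB A box pattern, run on GENCODE 29 translations. It matched 0 of 42 ZBTB proteins. Fingers were counted with a C2H2 pattern. Positions came from RefSeq.

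The genes, lists and tests were chosen with earlier results of these data known. Named genes are the 10 largest called changes in each direction without overlap, the 6 most abundant, 6 whose call depends on the scaling, 3 on each side of the TPM minimum, and, from each list, up to 2 rises and 2 falls of smallest p and the most abundant. Further list members, and the KRAB genes that fell, were named after their values were seen. Alternatives were library totals, RLE factors, totals without the 10 highest genes, no filter, 5 CPM in 2 libraries, DESeq2 1.42.0, limma 3.58.1 on log2(FPKM + 1) and log2(FPKM + 0.1), TPM minimums of 2 and 10, leaving out each library, and a replicate block.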

Additional observations from a re-analysis of the deposited data

How the results depend on the processing

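None of the 226 rises and 33 falls turned into a call of the opposite direction under any alternative run. DESeq2 called 175 of the 346 genes higher and 23 lower, and leaving out each library gave 187 to 225 higher, 24 to 33 lower and a median of 0.39 to 0.47. The number of genes that fell was 17 with library totals or totals without the 10 highest genes, and 18 on either FPKM scale. The median of the 346 genes was 0.603 and 0.602 with those totals and 0.596 on log2(FPKM + 0.1). KRAB genes that fell numbered 2 with either kind of totals and 3 with DESeq2, and their median was 0.796 with either and 0.746 on log2(FPKM + 0.1). Chromosome 19 genes that fell numbered 1 with either kind of totals, 3 with DESeq2 or FPKM and 3 to 8 when single libraries were left out, and their median was 0.860, 0.859 and 0.813. With TPM minimums of 2 and 10, 67.0% and 62.1% rose, 8.60% and 11.1% fell, and the medians were 0.48 and 0.33.

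Small changes turned sign. ZNF784 was at 0.15 with either kind of totals, 0.11 and 0.15 on the FPKM scales, 0.061 without Cal51R replicate 2 and 0.061 without Cal51 replicate 1. TRIM28 was at 0.0073 on both FPKM scales, ZNF511 at 0.0029 and 0.0032, and ZNF664 at -0.010 without Cal51R replicate 2. Over the 4 left-out libraries, ZNF784 ran from -0.17 to 0.061 and ZNF664 from -0.010 to 0.17. The cause was not tested.

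Whether same-numbered libraries were paired is not known from the labels. Their deviations from the mean of the line correlated at r = -0.156. With 2 libraries per line, r is the same for both numbers by construction and cannot settle the pairing. A replicate block called 215 genes higher and 30 lower, and 8905 of all genes. The crossed pairing, added after seeing the data, called 250 higher and 38 lower, and 10657 of all genes, against 9685 without a block.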
